A study of Mus musculus with 6 samples.

Results

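The proliferin genes of the mouse, Prl2c2, Prl2c3 and Prl2c5, were followed across 6 RNA-seq libraries of mouse aortic smooth muscle cells (MASMCs). They are 3 of the 54532 genes in the deposited table, and they were found by their gene symbols. Prl2c2 was chosen by its fold change between the groups described here, as 1 of the largest falls, and the other 2 genes were added for their near-identical sequence. The values of the 3 genes in this comparison are therefore given as a description, with no test.

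The 3 libraries labelled Ad-Con came from wild-type vascular smooth muscle cells that had received an adenoviral vector with a control plasmid, and the 3 labelled Ad-PDK4 from the same kind of cells with a vector for overexpression of PDK4 (pyruvate dehydrogenase kinase 4), which blocks the entry of pyruvate into the mitochondrial citric acid cycle. Per the labels the cells were grown in medium with fetal bovine serum, and the study's methods state that the cells were deprived of serum for experiments in culture. Per the study, the cells were isolated from the abdominal aorta, both groups were exposed to angiotensin II after the vector, and the 3 replicates were biological ones. The labels mention neither angiotensin II nor the source of the replicates, and cells without the vector were not analysed here.

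Proliferins, also known as mitogen-regulated proteins, are secreted glycoprotein hormones of the prolactin family. They are best known from the trophoblast giant cells of the mouse placenta, where they promote the growth of blood vessels, and from cultured mouse fibroblasts, where serum and growth factors induce them. They bind the insulin-like growth factor 2 receptor (Igf2r, also the cation-independent mannose 6-phosphate receptor), and AP-1 (dimers of Jun and Fos proteins) and the glucocorticoid receptor act on their promoters.

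The 3 genes lie on chromosome 13 in the coordinates of the deposited table, which are those of build GRCm38. Prl2c3 (ENSMUSG00000056457) spans bases 12790816 to 12800079 on the minus strand, Prl2c2 (ENSMUSG00000079092) spans 12996125 to 13005383 on the minus strand, and Prl2c5 (ENSMUSG00000055360) spans 13182715 to 13191923 on the plus strand. The start of Prl2c2 lies 205 kb from that of Prl2c3 and 177 kb from that of Prl2c5. Another 23 genes of the prolactin family lie on the same chromosome between bases 27057570 and 28151611, 13.9 Mb from Prl2c5.

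The coding sequences show how alike the genes are. In the GENCODE M21 transcripts each gene has 5 exons, and the coding sequence, stop codon included, has 675 bases in Prl2c2 and Prl2c3 and 669 in Prl2c5. Prl2c2 and Prl2c3 were identical at 672 of 675 positions (99.6%). Their 3 differences, counted from the first base of the start codon and written as the Prl2c2 base, the position and the Prl2c3 base, were T14C in exon 1, C200A in exon 2 and T319G in exon 4. Prl2c5 matched Prl2c2 at 649 of 675 aligned positions (96.1%), with 20 substitutions and 6 gap bases. The stretches around the 3 differences are shown because they are the coding bases by which a read of Prl2c2 can be told from one of Prl2c3. Capitals in Prl2c2 mark bases that differ in either of the other genes, and capitals in the other genes mark bases that differ from Prl2c2.

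Coding bases 1 to 44 hold T14C, at which Prl2c5 has the base of Prl2c2.
Prl2c2: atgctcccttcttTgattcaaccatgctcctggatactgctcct
Prl2c3: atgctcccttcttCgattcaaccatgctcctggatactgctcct
Prl2c5: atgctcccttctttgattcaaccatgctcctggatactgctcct

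Coding bases 170 to 230 hold C200A, and Prl2c5 differs from Prl2c2 here by A204G and T229C.
Prl2c2: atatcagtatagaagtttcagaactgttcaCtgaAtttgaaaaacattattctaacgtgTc
Prl2c3: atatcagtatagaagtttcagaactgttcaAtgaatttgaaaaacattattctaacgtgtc
Prl2c5: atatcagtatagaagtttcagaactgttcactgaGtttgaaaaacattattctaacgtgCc

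Coding bases 289 to 349 hold T319G, and Prl2c5 differs from Prl2c2 here by T308A, C311T, A314G, T319G, C320A and C341A.
Prl2c2: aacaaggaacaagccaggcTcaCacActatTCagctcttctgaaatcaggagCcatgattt
Prl2c3: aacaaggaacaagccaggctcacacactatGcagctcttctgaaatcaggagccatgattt
Prl2c5: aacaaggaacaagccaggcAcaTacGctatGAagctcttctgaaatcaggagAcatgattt

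The longest run of identical bases between the Prl2c2 and Prl2c3 transcripts was 466 bases, from base 377 to base 842, the last of the Prl2c2 transcript. Between Prl2c2 and Prl2c5 it was 120 bases. Of the 743 windows of 100 bases along the Prl2c2 transcript, 493 (66.4%) were also found in a transcript of another gene. Prl2c3 held 472 of them (63.5%), the unprocessed pseudogene Gm7040 held 129 (17.4%) and Prl2c5 held 21 (2.83%). The share in another gene was 62.3% for Prl2c3 and 9.29% for Prl2c5. The study's methods give paired reads of 150 bases, longer than these windows. With windows of 150 bases the share for Prl2c2 was 50.9%, and with windows of 300 bases it was 30.8%. A read from the shared part of Prl2c2 and Prl2c3 cannot be assigned to 1 of them by its sequence, and how the authors' counting treated such reads was not given in the sources used here. The values of Prl2c2 and Prl2c3 are therefore uncertain in how reads were divided between them, and reads that fit both may be missing from both.

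**Figure D1:**
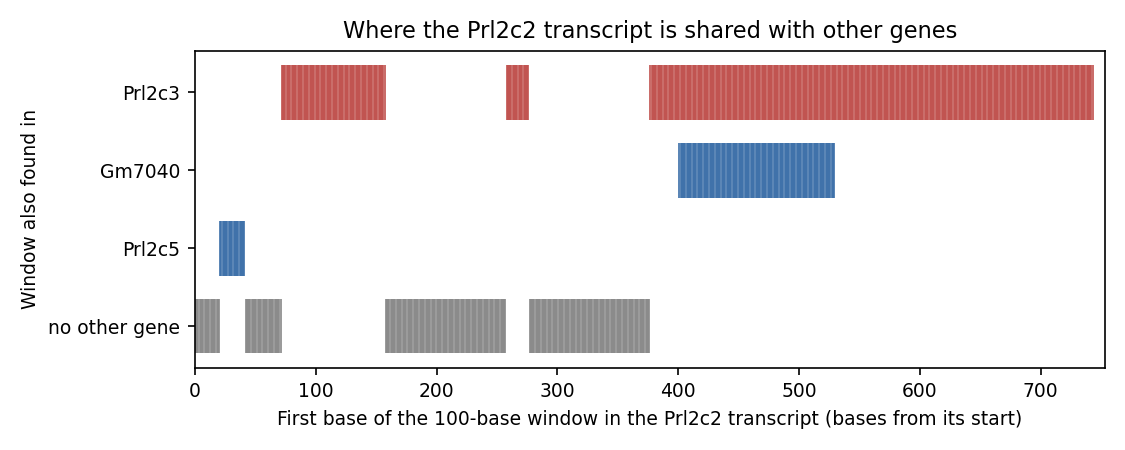
Windows of 100 bases along the Prl2c2 transcript, by their first base in bases from the transcript start (x axis), with a bar where the window is also found in a transcript of Prl2c3, Gm7040 or Prl2c5, or in no other gene (y axis). The longest stretch shared with Prl2c3 covers the last 466 bases without a break. Before it lie shorter stretches shared with Prl2c3 or Prl2c5 and all windows found in no other gene.

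Prl2c2 was the proliferin gene with nearly all of the reads, and it was lower in Ad-PDK4. Its level, in FPKM (fragments per kilobase of gene, scaled to the size of the library, the deposited unit), was 51.0, 50.8 and 55.4 in Ad-Con replicates 1, 2 and 3, and 11.0, 8.28 and 12.9 in Ad-PDK4 replicates 1, 2 and 3. The 3 Ad-Con libraries lay close together, and the lowest of them was far above the highest Ad-PDK4 library. These levels rested on 1131, 973 and 1095 reads in Ad-Con and on 219, 158 and 311 reads in Ad-PDK4.

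The mean FPKM of Prl2c2 was 52.4 ± 2.60 in Ad-Con and 10.7 ± 2.33 in Ad-PDK4 (SD, n = 3 each), so that 20.5% of the Ad-Con level was left and the ratio of the means was 4.88. On the log2(FPKM + 0.1) scale the difference, Ad-PDK4 minus Ad-Con, was -2.30 with a standard error of 0.15. By this value Prl2c2 ranked 49 among the 13423 genes tested, counted from the largest fall, which is what it was picked for. Of those genes 2.68% were lower by at least 2-fold at an adjusted p below 0.05 (limma), beside 3.95% that were higher by as much. The groups did not overlap in 54.3% of the tested genes, of which those lower in Ad-PDK4 made up 26.5% of all tested and those higher 27.8%. By its level Prl2c2 ranked 998, 1028 and 920 among all genes in the 3 Ad-Con libraries. It ranked 4843, 5895 and 4323 in the 3 Ad-PDK4 libraries. Its place was lower in each Ad-PDK4 library than in any Ad-Con library.

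Prl2c3 stood near the lower limit of the measurement in both groups. Its FPKM was 0.361, 0.712 and 0.324 in Ad-Con and 0.687, 0.588 and 0.533 in Ad-PDK4, from 8 to 17 reads per library. The groups overlapped, with the highest value in Ad-Con replicate 2. The means were 0.466 ± 0.214 and 0.603 ± 0.0781 FPKM (SD, n = 3 each), and the log2 difference was 0.37 with a standard error of 0.33.

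Prl2c5 had no read in 5 of the 6 libraries and 3 reads in Ad-PDK4 replicate 3, where its FPKM was 0.115. A count of 0 allows up to 3 reads, which corresponds to 0.115 to 0.146 FPKM for this gene, so both groups were at or under the floor and no fold change is given. Of the 3 genes, Prl2c2 and Prl2c3 passed the filter for testing, a mean FPKM of at least 0.5.

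**Figure D2:**
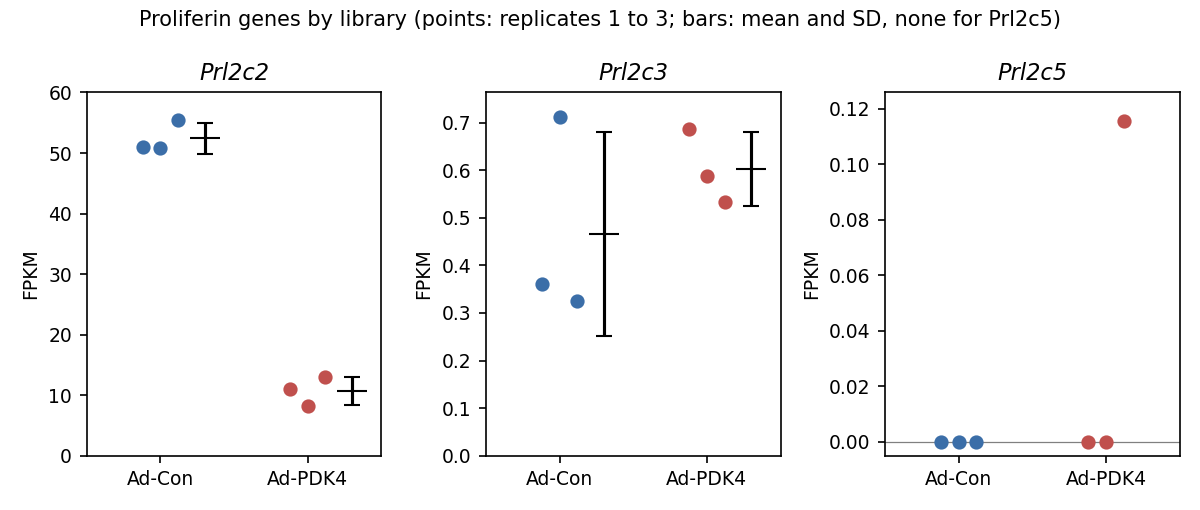
FPKM of Prl2c2, Prl2c3 and Prl2c5 (y axes, each with its own scale) in the 3 Ad-Con and 3 Ad-PDK4 libraries (x axis), with points for replicates 1 to 3 and bars for the mean and SD, which are left out for Prl2c5. The Ad-Con points of Prl2c2 lie between 50.8 and 55.4 and its Ad-PDK4 points between 8.28 and 12.9, the points of Prl2c3 overlap, and Prl2c5 is above 0 in 1 library.

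Within the proliferin reads the balance between the genes differed between the groups. Prl2c2 took 99.1%, 98.3% and 99.3% of the reads of the 3 genes in the Ad-Con libraries and 92.8%, 91.9% and 94.2% in the Ad-PDK4 libraries. Prl2c3 took 0.876%, 1.72% and 0.725% in Ad-Con, with exact 95% binomial (Clopper-Pearson) intervals that reached from 0.314% to 2.74% over the 3 libraries. It took 7.20%, 8.14% and 4.85% in Ad-PDK4, with intervals that reached from 2.80% to 13.3%. The shares did not overlap between the groups, and since the fall of Prl2c2 enters them they are no separate measurement. The intervals cover counting error only.

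The ratio of the FPKM of Prl2c2 to that of Prl2c3 was 141, 71.4 and 171 in the Ad-Con libraries and 16.1, 14.1 and 24.3 in the Ad-PDK4 libraries. Summed over the 3 genes, the reads numbered 1141, 990 and 1103 in the Ad-Con libraries and 236, 172 and 330 in the Ad-PDK4 libraries, and these sums do not depend on how counted reads were divided among the genes. The summed FPKM, in which each gene's reads are divided by its own length, was 52.9 ± 2.48 in Ad-Con and 11.4 ± 2.37 in Ad-PDK4 (SD, n = 3 each), with a ratio of 4.64.

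The rest of the prolactin family was close to silent in these cells. Of 28 genes listed for the family (growth hormone included), 27 were found under their own symbol, and 20 of these had no read in any library. Prl2c4 was not found under its own symbol, and the RefSeq table lists that name as a synonym of Prl2c3. Besides the proliferin genes, Prl (prolactin itself), Prl6a1, Prl7a1 and Prl7d1 had reads, with at most 3 in any library. Prl had 2 reads in Ad-Con replicate 3 and none elsewhere. Prl3d1 and Prl3b1, the placental lactogens, had no read. Prl2c2 and Prl2c3 were thus the family genes with more than 3 reads in any library.

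Markers of trophoblast, the cell type best known for proliferins, were looked at beside these values. None of 10 trophoblast markers had a mean FPKM of at least 0.5, and 7 of them, Elf5, Tfap2c, Cdx2, Hand1, Prl3d1, Prl3b1 and Tpbpa, had no read. The summed FPKM of the list was 0.413 to 0.463 in Ad-Con and 0.805 to 0.892 in Ad-PDK4, mostly from Plac1 in the first group and from Ascl2 in the second. The transcription factor Ascl2 had a mean of 0.0896 FPKM in Ad-Con and 0.799 in Ad-PDK4. Plac1 went the other way, with means of 0.344 and 0.0381 FPKM. Of the 10 markers 1 was lower in Ad-PDK4 with no overlap between the groups, 1 was higher and 8 overlapped. Among all tested genes 54.3% did not overlap.

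Fibroblast markers were high, with 8 of 8 at a mean FPKM of at least 0.5 and a summed level of 1575 to 1697 FPKM in Ad-Con and 854 to 950 in Ad-PDK4. Of 10 smooth muscle markers 5 reached that level, and the list summed to 172 to 173 FPKM in Ad-Con and 135 to 145 in Ad-PDK4. Acta2, smooth muscle actin, was measured at 78.0 ± 0.95 FPKM in Ad-Con and 36.2 ± 2.40 in Ad-PDK4 (SD, n = 3 each), a fall by 1.11 on the log2 scale (adjusted p = 5.3e-06, limma). Myh11, the smooth muscle myosin heavy chain, had 2 to 10 reads per library, and Tagln had 4 to 20, so 2 defining markers of contractile smooth muscle were near 0 in both groups. Of 8 macrophage markers 1 reached a mean FPKM of 0.5 and 5 had no read (Ptprc, C1qa, C1qb, Tyrobp and Itgam), and the list summed to 13.3 to 16.4 FPKM in Ad-Con and 3.68 to 5.50 in Ad-PDK4, nearly all of it Cd68. The summed level of 6 endothelial markers was 0.617 to 0.798 FPKM in Ad-Con and 0.885 to 1.18 in Ad-PDK4. Of these 6, 1 was higher in Ad-PDK4 with no overlap (Kdr, with means of 0.536 and 0.919 FPKM), 0 were lower and 5 overlapped. The sums of the fibroblast, smooth muscle and macrophage lists were lower in Ad-PDK4, as Prl2c2 was, but single markers went both ways. Over all tested genes the groups did not overlap in 54.3%, with 26.5% lower in Ad-PDK4 and 27.8% higher, and the marker counts are to be read beside these shares. Of the 8 fibroblast markers 5 were lower in Ad-PDK4 with no overlap between the groups, led by Col1a1 (1055 ± 42.4 against 435 ± 49.5 FPKM, SD, n = 3 each), 2 were higher and 1 overlapped. Dcn, one of those that were higher, was at 90.1 ± 8.20 FPKM in Ad-Con and 161 ± 19.0 in Ad-PDK4 (SD, n = 3 each). Of the 10 smooth muscle markers 5 were lower, 1 was higher (Cald1, with means of 56.0 and 71.9 FPKM) and 4 overlapped. Among those that were lower, Cnn1, Mylk and Des had a mean FPKM below 0.5 and were not tested. Of the macrophage markers Cd68 was lower, with means of 14.2 and 4.24 FPKM, and Csf1r was higher, with means of 0.258 and 0.640 FPKM. The part of any of these cell types in the level of Prl2c2 was not tested. In such bulk samples, fewer cells of a type and less RNA per cell cannot be told apart.

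Each library held 17588942 to 21861872 reads assigned to genes, and 19650 to 20615 genes had a read. Pdk4 itself, the gene named in the labels, was lower in the libraries labelled Ad-PDK4. Its FPKM was 9.50, 10.4 and 10.1 in Ad-Con and 7.67, 7.40 and 7.38 in Ad-PDK4, a fall by 0.42 on the log2 scale with a standard error of 0.06 (adjusted p = 1.1e-03, limma). The groups did not overlap, and the direction is opposite to the label. The study's methods describe a PDK4 plasmid amplified with primers that its primer list marks as mouse ones, and do not state whether the adenoviral vector carried the same sequence. The name Ad-PDK4 is used throughout as the label of these libraries, and the directions given here rest on it.

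Where Prl2c2 stands among all tested genes is shown by level and change. The median log2 difference over the 13423 genes was -0.0031. At an adjusted p below 0.05 (limma), 21.8% of the tested genes were higher in Ad-PDK4 and 20.8% lower, 42.7% in all. The counts below are to be read against these shares.

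**Figure D3:**
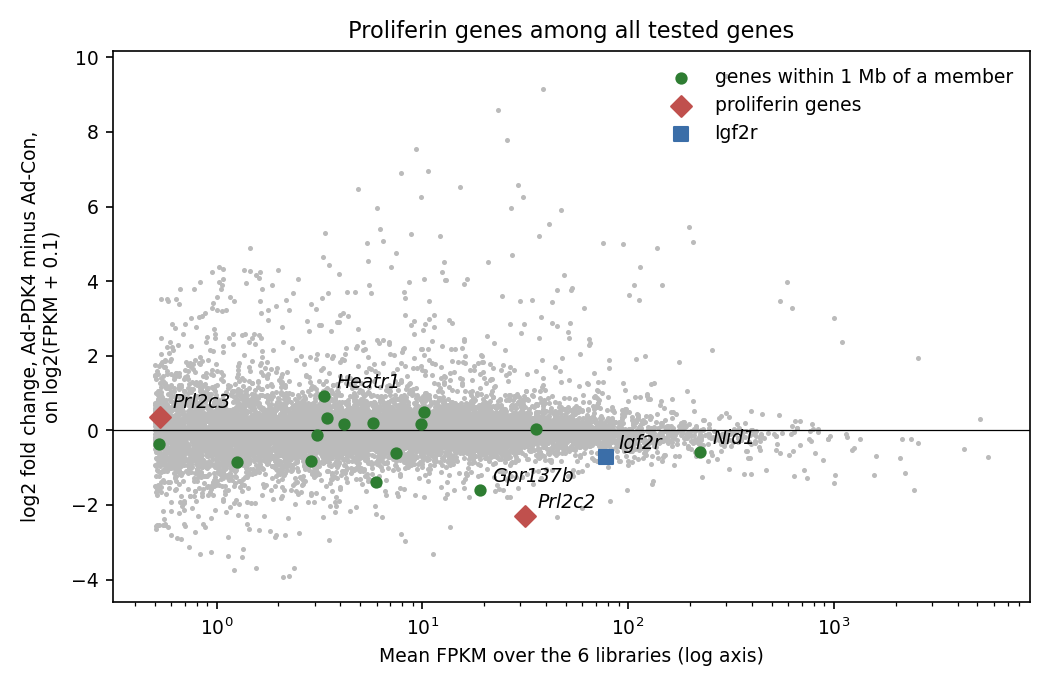
Log2 fold change, Ad-PDK4 minus Ad-Con on log2(FPKM + 0.1) (y axis), against the mean FPKM over the 6 libraries on a log axis (x axis) for the 13423 tested genes (grey points), with Prl2c2 and Prl2c3 as red diamonds, the 15 tested genes within 1 Mb of a proliferin gene as green circles and Igf2r as a blue square. Prl2c2 lies at -2.30 and Prl2c3 at 0.37.

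Of the receptors listed, the one known to bind proliferins was high and fell. Igf2r, which carries mannose 6-phosphate-tagged enzymes to lysosomes and takes up insulin-like growth factor 2, was at 96.7, 98.6 and 96.5 FPKM in Ad-Con and 60.2, 62.0 and 54.6 in Ad-PDK4. All 3 Ad-PDK4 libraries were below all 3 Ad-Con libraries. The means were 97.3 ± 1.15 and 59.0 ± 3.85 FPKM (SD, n = 3 each), a fall by 0.72 on the log2 scale with a standard error of 0.06 (adjusted p = 4.5e-05, limma). Igf2r passed the test under all 15 alternatives run, with log2 values from -0.76 to -0.67, and stayed under the 2-fold limit in each.

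M6pr, the cation-dependent mannose 6-phosphate receptor, had a log2 difference of 0.16 (adjusted p = 0.067, limma) and Ghr, the growth hormone receptor, one of 0.09 (adjusted p = 0.18, limma). The prolactin receptor gene Prlr had no read in any library. Of 3 tested receptor genes, 0 were thus higher and 1 was lower, with a median log2 difference of 0.09. M6pr passed the test under 3 of 15 alternatives.

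Among the genes for factors that act on the proliferin promoter, those that passed the test were higher in Ad-PDK4. They were 4 of the 7 tested regulators, with 0 lower, and the median log2 difference of the 7 was 0.21. Fosl1, a Fos-family partner in AP-1, was at 6.94 ± 0.608 FPKM in Ad-Con and 11.8 ± 0.833 in Ad-PDK4 (SD, n = 3 each), higher by 0.76 on the log2 scale (adjusted p = 2.8e-04, limma). Fosl2, another Fos-family partner, was at 20.9 ± 1.96 and 33.6 ± 1.57 FPKM, higher by 0.69 (adjusted p = 2.5e-04, limma). For both genes the lowest Ad-PDK4 library was above the highest Ad-Con library, and both passed under all 15 alternatives.

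Junb was higher by 0.25 (adjusted p = 0.036, limma) and Nr3c1, the glucocorticoid receptor gene, by 0.21 (adjusted p = 0.029, limma). These calls were less firm, since Junb lost its call in 7 and Nr3c1 in 8 of 15 alternatives. Jun had a log2 difference of -0.04, Jund of -0.17 and Fos of -0.13, and none of the 3 passed the test. Fosb, with a mean FPKM below 0.5, was not tested.

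The start-site sequences are shown because such factors are known to act on proliferin promoters. Whether they act at the sequences below was not tested. The RefSeq promoter table (GRCm38.p6) holds 2 of the 3 genes, Prl2c3 and Prl2c5, and Prl2c2 has no entry. Given are the 250 bases before the start, and capitals mark the motif TGANTCA, a broad form of the AP-1 element.

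Prl2c3, chr13:12800080-12800329, minus strand: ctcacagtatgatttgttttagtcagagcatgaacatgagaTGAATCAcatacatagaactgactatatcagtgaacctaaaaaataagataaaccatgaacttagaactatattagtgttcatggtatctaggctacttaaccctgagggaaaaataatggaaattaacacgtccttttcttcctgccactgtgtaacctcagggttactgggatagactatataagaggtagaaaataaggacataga

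Prl2c5, chr13:13182466-13182715, plus strand: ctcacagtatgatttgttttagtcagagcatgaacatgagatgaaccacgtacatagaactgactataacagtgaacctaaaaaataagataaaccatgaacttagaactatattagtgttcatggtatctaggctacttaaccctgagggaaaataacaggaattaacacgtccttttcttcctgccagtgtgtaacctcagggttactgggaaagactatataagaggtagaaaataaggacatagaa

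The 2 promoters were identical at 241 of 251 aligned positions (96.0%). On both strands TGANTCA was found once in Prl2c3, as TGAATCA at bases -209 to -203 from the start, and not in Prl2c5. It was found in 6.75% of the 32851 promoters of the table over the same 250 bases. TATAAA (12.4% of all promoters), CCAAT (33.8%) and TGACGTCA (1.55%) were found in neither as exact strings. Both sequences hold tatataag near the start, a form close to TATAAA that was not searched. TGANTCA and TGACGTCA cannot match the same bases in full. These matches are of letters, and both genes stood near the floor in these libraries.

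Growth factors are known to induce proliferins in fibroblasts, and the listed genes for growth factor receptors changed in both directions. Of 7 tested genes 3 were higher and 1 was lower, with a median log2 difference of 0.05. Egfr, the epidermal growth factor receptor, was at 13.1 ± 0.666 FPKM in Ad-Con and 22.1 ± 0.358 in Ad-PDK4 (SD, n = 3 each), higher by 0.75 (adjusted p = 3.4e-05, limma). Pdgfrb, the beta receptor for platelet-derived growth factor, was at 45.4 ± 3.41 and 64.6 ± 2.56 FPKM, higher by 0.51 (adjusted p = 5.3e-04, limma). Igf1r was higher by 0.24 (adjusted p = 0.012, limma).

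Met, the hepatocyte growth factor receptor, was lower by a log2 difference of -0.19 (adjusted p = 0.027, limma) and lost its call in 7 of 15 alternatives. Pdgfra at -0.05, Fgfr1 at 0.05 and Insr at -0.0025 did not pass, and Fgfr2, with a mean FPKM below 0.5, was not tested. In the 3 lists no gene changed by 2-fold or more.

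Within 1 Mb of a proliferin gene the table lists 72 other genes. Of these 38 had no read in any library, 19 had reads but a mean FPKM below 0.5, and 15 were tested. Among the 15, 4 rose and 5 fell by the same test (60.0% in all, beside 42.7% of all tested genes), and the median log2 difference was -0.13. Changes in both directions were thus found around Prl2c2.

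Gpr137b, which codes for a membrane protein of the lysosome, was the only tested neighbour that passed the test and was lower by at least 2-fold. It lies at bases 13357620 to 13394014, its start 389 kb from that of Prl2c2. Its FPKM was 31.6, 26.8 and 27.9 in Ad-Con and 9.76, 9.48 and 8.91 in Ad-PDK4, with no overlap. It fell by 1.60 on the log2 scale with a standard error of 0.07 (adjusted p = 2.5e-06, limma). Of its 100-base windows 23.5% were also found in its pseudogene Gpr137b-ps on the other side of Prl2c2, which was at 9.04 ± 0.364 FPKM in Ad-Con and 5.95 ± 0.197 in Ad-PDK4 (SD, n = 3 each), lower by a log2 difference of -0.59 (adjusted p = 2.1e-04, limma).

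Nid1, which codes for nidogen 1 of the basement membrane, was at 269 ± 7.66 FPKM in Ad-Con and 179 ± 11.9 in Ad-PDK4 (SD, n = 3 each), lower by a log2 difference of -0.59 (adjusted p = 1.5e-04, limma). Ero1lb, an oxidase of the endoplasmic reticulum, had a log2 difference of -0.85 (adjusted p = 3.2e-03, limma). The processed pseudogene Gm2423 had one of -0.83 (adjusted p = 5.5e-04, limma), with 84.2% of its windows also in other genes. Ero1lb and Gm2423 kept their calls under every alternative that tested them.

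Heatr1, a factor in ribosome production, was the neighbour with the largest rise, from 2.28 ± 0.140 FPKM in Ad-Con to 4.38 ± 0.199 in Ad-PDK4 (SD, n = 3 each), higher by 0.92 on the log2 scale (adjusted p = 1.2e-04, limma). Ggps1, an enzyme of isoprenoid synthesis, was higher by 0.50 (adjusted p = 4.7e-03, limma) and Lyst, a regulator of lysosome size, by 0.33 (adjusted p = 0.012, limma). B3galnt2, a glycosyltransferase, was higher by 0.17 (adjusted p = 0.049, limma) and lost its call in 9 of 15 alternatives.

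The tested genes next to the members along the chromosome were Gm2399, on the lower-coordinate side of Prl2c3, and Gm2423, on the higher-coordinate side of Prl2c5. Gm2399, a short unprocessed pseudogene, had a log2 difference of -1.38 with a standard error of 0.58 (adjusted p = 0.11, limma). Its groups overlapped, and 44.4% of its windows were also in Nid1. Its log2 difference was -0.86 when Ad-PDK4 replicate 3 was left out and -1.85 when replicate 1 of that group was, and it passed the test under 2 of 15 alternatives. No tested gene lay between Prl2c3 and Prl2c2 or between Prl2c2 and Prl2c5, apart from the members.

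**Figure D4:**
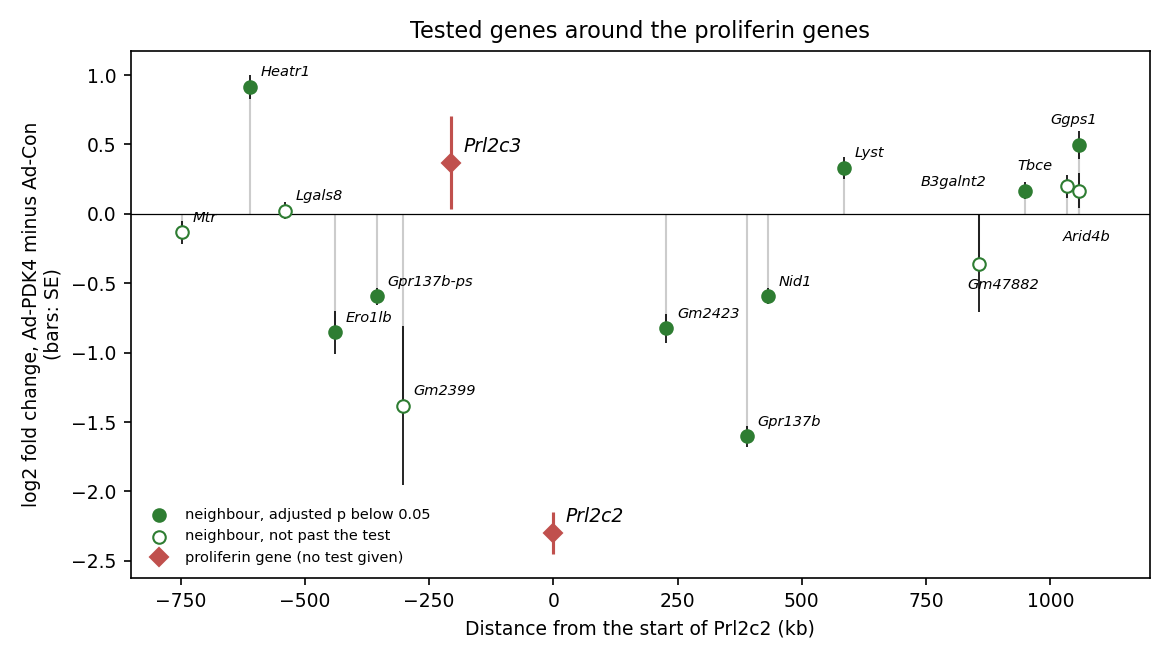
Log2 fold change, Ad-PDK4 minus Ad-Con (y axis, bars give the standard error), of the tested genes within 1 Mb of a proliferin gene against the distance of their start from that of Prl2c2 in kb (x axis). Filled green circles mark the 9 neighbours with an adjusted p below 0.05 (limma), open circles the 6 others and red diamonds Prl2c2 and Prl2c3, for which no test is given. Falls and rises lie on both sides of Prl2c2.

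The genes whose pattern over the 6 libraries was most like that of Prl2c2 were found by the Euclidean distance between log2(FPKM + 0.1) values centred on each gene's mean, over all 13423 tested genes. Since Prl2c2 was chosen for its fall, genes near it by this measure fall too, and their values are a description. The 8 nearest were Spon2, Mamdc2, Dio2, Slc40a1, Megf10, Tmem252, S100a4 and Ggt5, at distances from 0.445 to 0.643. All of them lie on other chromosomes.

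Spon2, which codes for the matrix protein spondin 2, was nearest, at 6.17 ± 0.598 FPKM in Ad-Con and 1.45 ± 0.186 in Ad-PDK4 (SD, n = 3 each). Mamdc2, another secreted matrix protein, was at 23.3 ± 1.76 and 3.85 ± 0.743 FPKM. Dio2, the type 2 deiodinase that activates thyroid hormone, was at 6.26 ± 0.377 and 1.29 ± 0.144 FPKM. These 3 genes had log2 differences of -2.01, -2.58 and -2.19, on both sides of the -2.30 of Prl2c2.

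Slc40a1, the iron exporter ferroportin, was at 5.82 ± 0.133 FPKM in Ad-Con and 1.34 ± 0.0649 in Ad-PDK4 (SD, n = 3 each). S100a4, a calcium-binding protein often used as a fibroblast marker, was the one closest to Prl2c2 in level, at 40.0 ± 2.24 and 11.6 ± 2.12 FPKM. Of its 100-base windows 50.9% are shared with Gm42674. Ggt5, an enzyme of leukotriene metabolism, was at 7.36 ± 1.10 and 1.56 ± 0.0916 FPKM. Megf10 and Tmem252 had means of 1.03 and 1.11 FPKM in Ad-Con and of 0.0932 and 0.224 in Ad-PDK4. In all 8, as in Prl2c2, no Ad-PDK4 library reached an Ad-Con library.

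**Figure D5:**
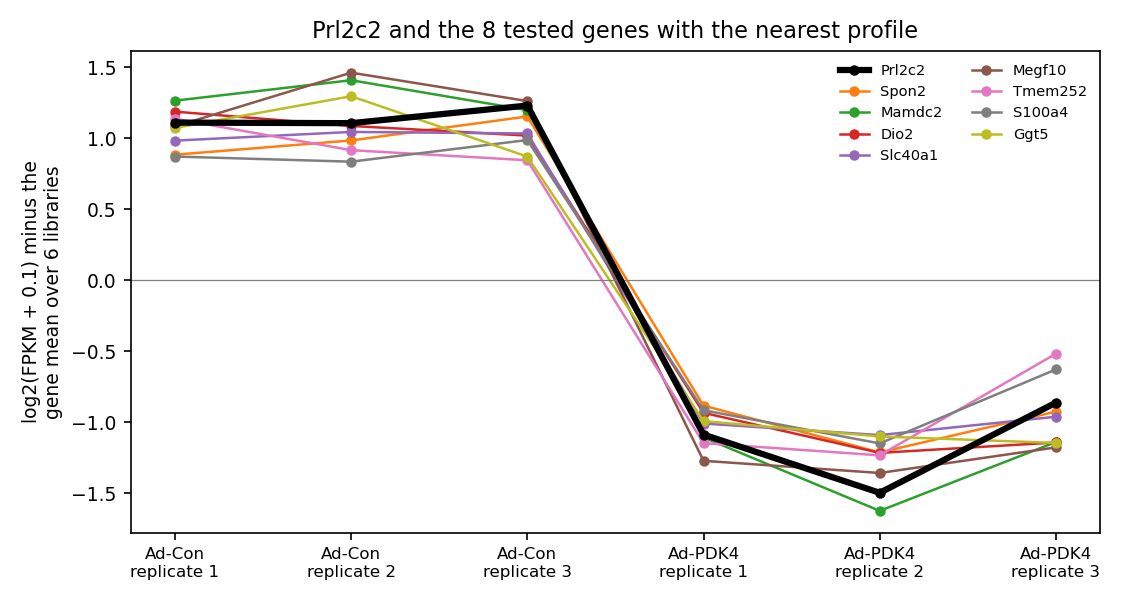
Log2(FPKM + 0.1) minus the gene's mean over the 6 libraries (y axis) in each library (x axis) for Prl2c2 (thick black line) and the 8 tested genes with the nearest profile. Lines only link the points of a gene, and all 9 genes are above 0 in the 3 Ad-Con libraries and below 0 in the 3 Ad-PDK4 libraries.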

How the data were processed

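RNA-seq was measured in 6 libraries, 3 Ad-Con and 3 Ad-PDK4, grouped by their treatment labels. The submitters' processing notes list CASAVA 1.8, fastp, HISAT2 2.0.5, featureCounts 1.5.0-p3, DESeq2 1.20.0 and build GRCm39. Of 54409 gene identifiers found in GENCODE M21 (GRCm38), 98.3% had the same coordinates there, so GRCm38 is given. The labels name a SMARTER kit and the study's methods a NEBNext Ultra kit. Strand use and the treatment of multi-mapping reads were not given in the sources used here. The deposited values are FPKM, computed by the authors per gene and library. When multiplied by gene length, 100% of the values were whole multiples of 1 unit per library (tolerance 0.01), and these are called reads here.

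The 13423 genes whose FPKM averaged 0.5 or more were compared in limma 3.58.1 (R 4.3.3, trend and robust), as log2(FPKM + 0.1) and without covariates, with Benjamini-Hochberg adjustment over all of them. This p-value reflects the spread between 3 libraries a group. Fold calls also needed a 2-fold change. The test was checked on simulated data with a fixed spread and far fewer changed genes than passed here. That check does not show how the test behaves on these data.

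The members and lists were chosen with earlier results of these data known. Named were the members, family genes with a read, 3 lists (receptors, promoter regulators, growth factor receptors), the neighbours past the test with the 4 largest changes in each direction and those next to a member, genes holding at least 10% of a member's windows, the 8 nearest profiles, Pdk4 and markers. Nid1 lies outside this rule and was named after its values were seen. Coding sequences came from the first-numbered coding transcript of each gene (GENCODE M21) and were aligned with Biopython 1.88. Windows came from the longest transcript, on the transcript strand, with 842, 857 and 971 bases for Prl2c2, Prl2c3 and Prl2c5. The gene lengths behind the FPKM were 1090, 1360 and 1177 bases, so part of each gene was not checked for shared sequence. A planned comparison of protein sequences was not made.

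The alternatives took pseudocounts of 1 and 0.01, all genes with a mean above 0, a minimum mean FPKM of 5, quantile normalization, TPM, no trend or robust, a replicate block, limma-voom on recovered reads, and leaving out each library. Windows of 150 and 300 bases were added after seeing the data.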

Additional observations from a re-analysis of the deposited data

How the results depend on the processing

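The log2 difference of Prl2c2 was between -2.44 and -2.12 under the 15 alternatives, the widest span coming from leaving out single libraries. That of Prl2c3 was between 0.14 and 0.66 under the 14 that gave a value, and it had no value at a minimum mean FPKM of 5. No fold change was computed for Prl2c5. Of the 36 other named genes, 27 passed the test, and 23 of these passed it under every alternative that tested them. B3galnt2, Junb, Met and Nr3c1 lost it under some. Many of the named genes were chosen by their values, as neighbours past the test or as profiles that fall like Prl2c2. The counts of 27 and 23 are therefore partly set by that choice and give no pass rate. Of all tested genes, 42.7% passed. Of 529 values of the named genes under alternatives, 486 kept direction and side of the threshold, 31 no longer passed, 6 came to pass and 6 changed sign.

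The sign changes were in genes that did not pass. Under quantile normalization Fgfr1 had a log2 difference of -0.017, and under TPM Insr had one of 0.038. With single libraries left out, Insr ranged from -0.022 to 0.028, with 0.0081 when Ad-PDK4 replicate 2 was left out. Jun ranged from -0.11 to 0.026, and Fos from -0.34 to 0.12. The cause was not tested.

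Genes called lower numbered 360, but 153 with a pseudocount of 1 and 114 at a minimum mean FPKM of 5, where 258 were called higher in place of 530. At that minimum fewer genes were tested, and 5 neighbouring genes passed in place of 9. Over the libraries left out singly, 341 to 379 genes were called lower and 505 to 544 higher. limma-voom on the recovered reads called 552 higher and 409 lower. The promoter regulators past the test numbered 2 in place of 4 with no filter, under quantile normalization and without trend and robust moderation. They numbered 2 to 3 when single libraries were left out, with 2 when Ad-Con replicate 1 or Ad-PDK4 replicate 3 was left out. The receptors past it numbered 2 in place of 1 under TPM and limma-voom, and 1 to 2 with single libraries left out, the 2 coming without Ad-PDK4 replicate 2. The added receptor in these cases was M6pr. The cause was not tested.

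With windows of 150 and 300 bases, the share of windows also found in another gene was 50.9% and 30.8% for Prl2c2, 49.9% and 29.9% for Prl2c3, and 0% and 0% for Prl2c5. A longer window is shared less often by construction, and 150 bases is the length of a read in the study's methods.

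No shared deviation was seen between same-numbered libraries, whose deviations from their group means had correlations of -0.046, -0.031 and -0.0013. These values cannot show whether the libraries were paired by design. With the replicate number as a block, 5385 genes passed the test in place of 5726, 529 being called higher and 354 lower. The 8 to 17 reads of Prl2c3 and the 0 to 3 of Prl2c5 limit what can be said of either.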
